A study of Mus musculus with 12 samples.

Results

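The 10 genes described here are the cell cycle inhibitors and marks by which cellular senescence is usually recognised, taken from a table of 24340 genes in mouse retina. They are the cyclin-dependent kinase (CDK) inhibitors Cdkn2a, Cdkn2b, Cdkn2c, Cdkn1a and Cdkn1b, the tumor suppressors Trp53 and Rb1, the nuclear lamina gene Lmnb1, the lysosomal enzyme gene Glb1 and the chromatin protein gene Hmgb1. They were chosen by name with earlier results of these data known, and all 10 were above 0 in at least 1 of 12 libraries, as were 18509 genes in all. RNA was sequenced from both retinas of 6 mice aged 12 to 16 weeks. All 6 mice, including those that gave the control retinas, carried the p16-3MR transgene, in which p16Ink4a regulatory sequence drives a fusion of luciferase, a red fluorescent protein and a viral thymidine kinase that makes ganciclovir (GCV) toxic to the cell. The intraocular pressure (IOP) of 1 eye of each mouse had been held at 85 to 90 mm Hg for 60 minutes, and the other eye was the control. Mice 1, 2 and 5 then received GCV daily at 25 mg/kg and mice 3, 4 and 6 were sham-treated, and retinas were taken at day 3. This gave 4 groups of 3 retinas, named control, IOP, control-GCV and IOP-GCV.

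Senescent cells leave the cell cycle for good, and this arrest is held by CDK inhibitors that keep the retinoblastoma protein Rb1 in the form that binds E2F factors and silences the genes of DNA replication. The Cdkn2a locus encodes both p16Ink4a, an inhibitor of Cdk4 and Cdk6, and p19Arf, which stabilises p53 by binding Mdm2, while Cdkn1a encodes p21, the classic target of p53. Loss of lamin B1, release of Hmgb1 from the nucleus and high lysosomal β-galactosidase, the product of Glb1, are further marks of the senescent state, of which the last 2 are seen in protein or enzyme activity more than in RNA.

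The values were FPKM, the sequenced fragments of a gene scaled for its length and for the depth of the library, and the number of fragments behind them was estimated from the steps between low values. The IOP retina of mouse 6 stood apart. It held an estimated 4000000 fragments and 14844 genes above 0, against 6840000 to 9040000 fragments and 16044 to 16593 genes in the other 11 libraries. It was also the highest of the 12 libraries for 27.6% and the lowest for 25.1% of the 12910 genes whose mean reached 1 FPKM, and values without it are given beside several of the results. Rod markers summed to 28600 to 53190 FPKM in all libraries, as retina should. Lens markers reached 4288 FPKM in 1 control-GCV retina and 1570 FPKM or more in 5 of 6 IOP-treated retinas, and their part in the results was not tested.

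The sequences upstream of Cdkn2a are shown because the deposited table has 1 row for this gene, whereas it has 2 transcription starts. Of the 2 Cdkn1a windows only that of the first start is shown, because it holds matches to the p53 half-site. Each is the 250 bases before a start in RefSeq on build GRCm38.p6, written 5′ to 3′ on the strand of the gene, with motif matches in capitals. The p19Arf start is preceded by chr4:89294620-89294869 (minus strand), the p16Ink4a start by chr4:89282193-89282442 (minus strand), and the first Cdkn1a start by chr17:29090729-29090978 (plus strand).
Cdkn2a, p19Arf start: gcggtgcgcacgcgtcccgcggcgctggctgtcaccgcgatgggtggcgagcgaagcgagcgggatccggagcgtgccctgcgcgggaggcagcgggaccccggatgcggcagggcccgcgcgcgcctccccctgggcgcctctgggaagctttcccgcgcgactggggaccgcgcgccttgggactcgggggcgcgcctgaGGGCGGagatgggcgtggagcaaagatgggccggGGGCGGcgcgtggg
Cdkn2a, p16Ink4a start: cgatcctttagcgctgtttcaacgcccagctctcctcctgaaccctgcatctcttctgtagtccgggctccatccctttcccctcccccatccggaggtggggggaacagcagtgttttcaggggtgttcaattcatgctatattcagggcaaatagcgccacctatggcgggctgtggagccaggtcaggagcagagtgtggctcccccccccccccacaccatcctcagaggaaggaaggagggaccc
Cdkn1a, first start: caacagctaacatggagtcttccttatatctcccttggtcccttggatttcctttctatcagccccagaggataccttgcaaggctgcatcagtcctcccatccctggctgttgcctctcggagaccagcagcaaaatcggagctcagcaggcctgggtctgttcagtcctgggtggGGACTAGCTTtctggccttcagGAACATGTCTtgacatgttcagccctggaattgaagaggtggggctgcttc

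The p19Arf window held 2 matches to the GC box (GGGCGG on either strand), a motif found in 32.7% of 32851 RefSeq promoter windows of this length. The p16Ink4a window held no match to the GC box, the AP-1 site (TGANTCA), the GAS element (TTCNNNGAA), the TATA box (TATAAA) or the p53 half-site. The window of the first Cdkn1a start held 2 matches to the p53 half-site, at 73 to 64 and 51 to 42 bases before the start. The window of its second start (chr17:29093519-29093768) held 0 matches to this motif and 2 to the GC box. The p53 half-site was found in 7.13% of all windows. The upstream window of Trp53 itself held 1 match to it. These are matches of letters in a window and not sites of binding. Promoter windows were found for 8 of the 10 genes. In the same RefSeq annotation Cdkn2a spans chr4:89274473-89294619 and Cdkn2b chr4:89306289-89311032, beside each other, while Cdkn1a spans chr17:29090979-29100722 and Trp53 chr11:69580348-69591873.

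Which of these marks could be measured at this depth differed widely between the genes. Cdkn1b had the highest mean over the 12 libraries, at 67.4 FPKM, followed by Cdkn2c at 26.6, Lmnb1 at 18.8, Rb1 at 15.2, Hmgb1 at 11.5, Trp53 at 8.46, Glb1 at 5.37 and Cdkn1a at 5.12 FPKM. These 8 genes were above 1 FPKM in all 12 libraries. Cdkn2b had a mean of 0.984 FPKM and reached 1 FPKM in 4 libraries. Cdkn2a had a mean of 0.190 FPKM, did not reach 1 FPKM in any library and was at 0 in 4. FPKM is a value per length, so levels can be set side by side between genes. Cdkn1b lay above the other genes in all 12 libraries, whereas the neighbours from Cdkn2c to Cdkn1a had overlapping ranges over the libraries.

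**Figure D1:**
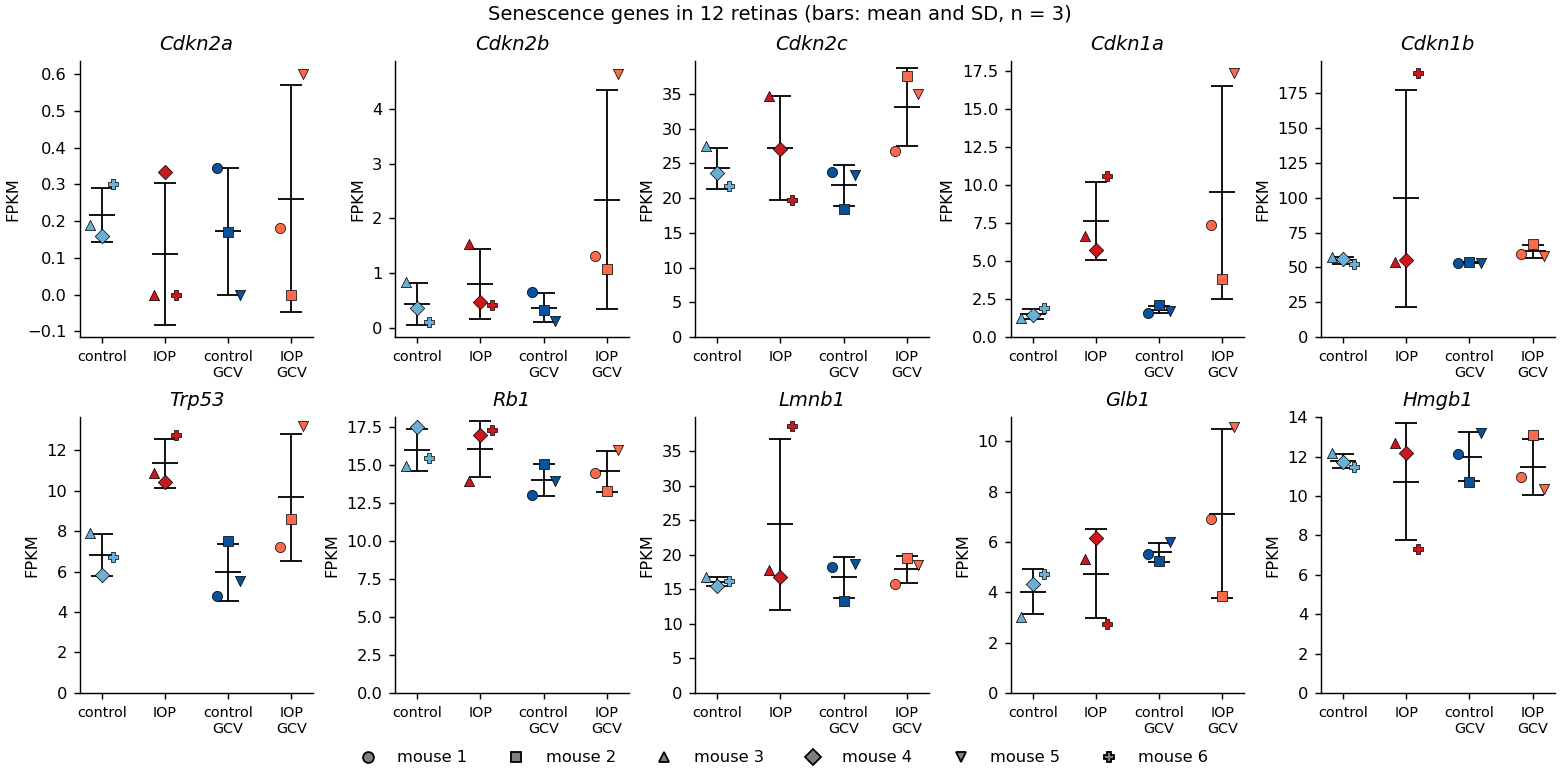
FPKM of each of the 10 genes (vertical axes, 1 scale per gene) in the 4 groups of 3 retinas; symbols mark the mouse, and bars give the group mean and SD. Cdkn1a was higher in all 6 IOP-treated retinas (3.83 to 17.3 FPKM) than in all 6 control retinas (1.25 to 2.09 FPKM), and the IOP retina of mouse 6 was the highest of all for Cdkn1b (189 FPKM) and Lmnb1 (38.7 FPKM).

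Cdkn2a, whose p16Ink4a promoter drives the transgene, was close to the floor of the measurement. It was at 0.189, 0.160 and 0.301 FPKM in the control retinas of mice 3, 4 and 6 and at 0, 0.334 and 0 FPKM in their IOP retinas. In mice 1, 2 and 5 it was at 0.345, 0.171 and 0 FPKM in the control-GCV retinas and at 0.181, 0 and 0.601 FPKM in the IOP-GCV retinas. The groups overlapped, and a retina with 0 was found in each group other than control.

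These values correspond to an estimated 14 fragments over all 12 libraries, of which 4 came from control, 2 from IOP, 3 from control-GCV and 5 from IOP-GCV retinas. One fragment was worth 0.157 to 0.355 FPKM, and the 4 retinas at 0 allowed up to 0.540 to 1.07 FPKM, the value of 3 fragments. Per fragment sequenced, IOP retinas held 0.617 times the Cdkn2a fragments of control retinas without GCV (95% interval 0.0558 to 4.30, exact binomial) and 1.54 times with GCV (0.300 to 9.93). IOP-GCV retinas held 2.17 times those of IOP retinas (0.355 to 22.8). These intervals cover counting error only and span both directions, so that neither a rise with IOP nor a fall with GCV was detectable at this depth. The row does not separate p16Ink4a from p19Arf, and transcripts of the transgene were not analysed here.

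**Figure D2:**
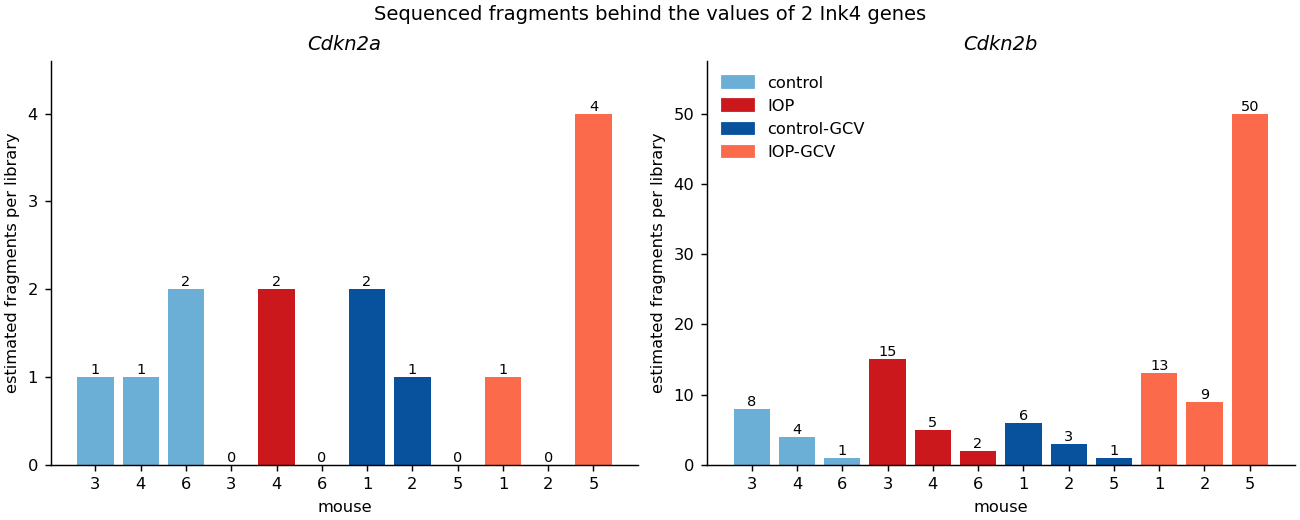
Estimated number of sequenced fragments (vertical axes) of Cdkn2a (left) and Cdkn2b (right) in each library, named by mouse and coloured by group. No library held more than 4 fragments of Cdkn2a, and 50 of the 117 fragments of Cdkn2b came from the IOP-GCV retina of mouse 5.

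Cdkn2b encodes p15Ink4b, which inhibits the same kinases as p16Ink4a and lies next to Cdkn2a. It was at 0.840, 0.358 and 0.0934 FPKM in control and at 1.54, 0.466 and 0.404 FPKM in IOP retinas of mice 3, 4 and 6. In mice 1, 2 and 5 it was at 0.646, 0.318 and 0.119 FPKM in control-GCV and at 1.30, 1.06 and 4.66 FPKM in IOP-GCV retinas. The IOP-treated eye was the higher one in 6 of 6 mice, but without GCV the groups overlapped. The mean effect over mice with and without GCV was 0.73 (SE 0.27) on the log2(FPKM + 1) scale and did not pass the test (adjusted p = 0.0969, limma with Benjamini-Hochberg adjustment over all genes tested). With a pseudocount of 0.1 in place of 1 it was 1.55 (adjusted p = 0.0798, limma). An estimated 117 fragments of Cdkn2b were sequenced in all, 94 of them in the 6 IOP-treated retinas, and 50 in the IOP-GCV retina of mouse 5 alone.

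Cdkn2c, which encodes p18Ink4c, another inhibitor of Cdk4 and Cdk6, had the highest mean of the Ink4 genes among the 10. It was at 27.5, 23.6 and 21.8 FPKM in control and at 34.7, 27.1 and 19.8 FPKM in IOP retinas. With GCV it was at 23.8, 18.5 and 23.3 FPKM in control-GCV and at 26.8, 37.6 and 34.9 FPKM in IOP-GCV retinas. The groups overlapped without GCV and did not overlap with GCV, and the IOP-treated eye was higher in 5 of 6 mice. The mean effect was 0.35 (SE 0.14) on the log2(FPKM + 1) scale and did not pass the test in limma (adjusted p = 0.126). Without the IOP retina of mouse 6 it was 0.45 and passed (adjusted p = 0.0440).

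Cdkn1a had the largest mean effect of IOP among the 10 genes. It was at 1.25, 1.45 and 1.91 FPKM in control and at 6.64, 5.70 and 10.6 FPKM in IOP retinas of mice 3, 4 and 6. In mice 1, 2 and 5 it was at 1.59, 2.09 and 1.75 FPKM in control-GCV and at 7.39, 3.83 and 17.3 FPKM in IOP-GCV retinas. All 6 IOP-treated retinas lay above all 6 control retinas, and the IOP-GCV retinas spread most widely. The mean effect of IOP was 1.71 (SE 0.29) on the log2(FPKM + 1) scale, with a 95% interval from 1.08 to 2.35 and adjusted p = 0.00604 in limma. The group means on the FPKM scale were 1.54 ± 0.334 in control, 7.63 ± 2.58 in IOP, 1.81 ± 0.251 in control-GCV and 9.52 ± 6.998 FPKM in IOP-GCV retinas (SD, n = 3). This call was kept in 12 of 12 fits that left out 1 library and in 5 of 5 other alternatives, with the mouse as a block among them (adjusted p = 0.0232).

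Within either arm of the study alone, the same gene missed the threshold. Without GCV the difference was 1.74 (SE 0.40, adjusted p = 0.0686) and with GCV it was 1.69 (SE 0.40, adjusted p = 0.0668, both limma). The difference between these effects was -0.04 on the log2 scale with a 95% interval from -1.31 to 1.22, which allows a sizeable difference in either direction.

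Markers of immune cells, reactive glia, ganglion cells and amacrine cells also differed between IOP-treated and control retinas. The summed level of 8 microglia and macrophage markers was 41.4 to 74.0 FPKM in control, 242 to 665 in IOP, 50.6 to 56.9 in control-GCV and 206 to 634 FPKM in IOP-GCV retinas, and 6 of the 8 were called higher in the averaged comparison, as were 6.76% of all genes. The sum of 8 leukocyte markers was 8.61 to 45.6, 318 to 735, 11.4 to 36.4 and 162 to 2487 FPKM in the same order. Again 6 of 8 were called higher. Of this sum, Lyz2 alone had a mean of 503 FPKM in IOP and 887 FPKM in IOP-GCV retinas. The monocyte and T cell markers Ly6c2 and Cd3e were at 0 in all control-GCV retinas. Ly6c2 had means of 0.115, 8.09 and 21.7 FPKM in control, IOP and IOP-GCV retinas. Those of Cd3e were 0.0903, 0.063 and 0.0645 FPKM. The sum of 5 reactive glia markers was 99.3 to 221, 569 to 664, 122 to 149 and 636 to 1686 FPKM, with 5 of 5 called higher. The IOP-GCV retina of mouse 5 was highest for Cdkn1a, for leukocyte markers and for reactive glia. Neuronal markers were lower in most of the same retinas. The sum of 6 ganglion cell markers was 807 to 1025 FPKM in control, 196 to 890 in IOP, 1020 to 1626 in control-GCV and 296 to 651 FPKM in IOP-GCV retinas, with 5 of 6 called lower, as were 5.44% of all genes, and its highest IOP value was that of mouse 4. The sum of 5 amacrine cell markers was 137 to 167, 46.0 to 130, 160 to 195 and 44.8 to 107 FPKM in the same order, with 3 of 5 called lower. That of 5 bipolar cell markers was 368 to 505, 258 to 371, 426 to 499 and 153 to 453 FPKM. It overlapped in both arms. Without the IOP retina of mouse 6, and likewise without the IOP-GCV retina of mouse 5, 0 of 6 ganglion cell and 1 of 5 amacrine cell markers were called lower, and with the mouse as a block 1 of 6 and 3 of 5. Ganglion cell effects without the IOP retina of mouse 6 were still -1.54 to -0.96 (log2, adjusted p = 0.0531 to 0.115, limma). The part of these cells in the rise of Cdkn1a was not tested, and in whole retina a change in the number of cells of a type cannot be told apart from a change in RNA per cell.

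**Figure D3:**
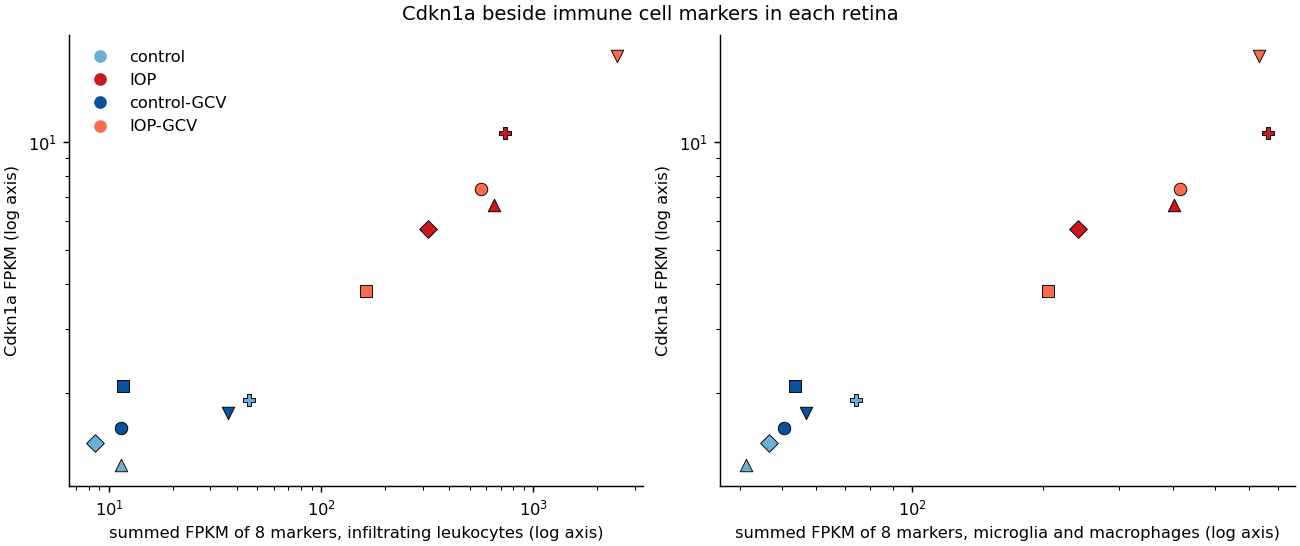
Cdkn1a (vertical axes, FPKM, log scale) against the summed FPKM of 8 leukocyte markers (left) and 8 microglia and macrophage markers (right, log scales) in the 12 retinas, coloured by group with 1 symbol per mouse. All 6 IOP-treated retinas lay above all 6 control retinas on both axes, and the IOP-GCV retina of mouse 5 was highest for Cdkn1a (17.3 FPKM) and for leukocyte markers (2487 FPKM).

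Cdkn1b encodes p27, a CDK inhibitor of resting and differentiated cells. It was at 57.1, 55.7 and 52.1 FPKM in control and at 54.1, 55.2 and 189 FPKM in IOP retinas of mice 3, 4 and 6. In the GCV arm it was at 53.5, 54.1 and 53.2 FPKM in control-GCV and at 59.5, 67.0 and 58.1 FPKM in IOP-GCV retinas. Apart from the 1 outlying retina it lay within a narrow range, and with GCV the groups did not overlap. Without GCV the difference was 0.58 on the log2(FPKM + 1) scale (SE 0.38, adjusted p = 0.406 in limma) and became -0.0087 without the IOP retina of mouse 6.

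Trp53, which encodes p53, rose with IOP by a smaller amount than Cdkn1a. It was at 7.90, 5.82 and 6.72 FPKM in control and at 10.9, 10.5 and 12.8 FPKM in IOP retinas, without overlap. With GCV it was at 4.82, 7.52 and 5.55 FPKM in control-GCV and at 7.23, 8.60 and 13.2 FPKM in IOP-GCV retinas, where the control retina of mouse 2 lay above the IOP retina of mouse 1. The IOP-treated eye was higher in 6 of 6 mice. The mean effect was 0.63 (SE 0.15) on the log2(FPKM + 1) scale, with a 95% interval from 0.29 to 0.97 and adjusted p = 0.0303 in limma. With the mouse as a block the adjusted p was 0.0527, and the call was kept in 5 of 12 fits that left out 1 library (adjusted p from 0.0197 to 0.0795). Without the IOP retina of mouse 6 the effect was 0.59 and the adjusted p 0.0505 in limma.

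Rb1, the retinoblastoma gene on which the CDK inhibitors converge, had the narrowest range of differences between eyes, from -0.17 to 0.19 on the log2(FPKM + 1) scale. It was at 14.9, 17.5 and 15.5 FPKM in control and at 13.9, 16.9 and 17.3 FPKM in IOP retinas. With GCV it was at 13.0, 15.1 and 13.9 FPKM in control-GCV and at 14.5, 13.3 and 16.0 FPKM in IOP-GCV retinas. The groups overlapped, and the mean effect was 0.03 with a 95% interval from -0.15 to 0.21 on the log2(FPKM + 1) scale (adjusted p = 0.843, limma).

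**Figure D4:**
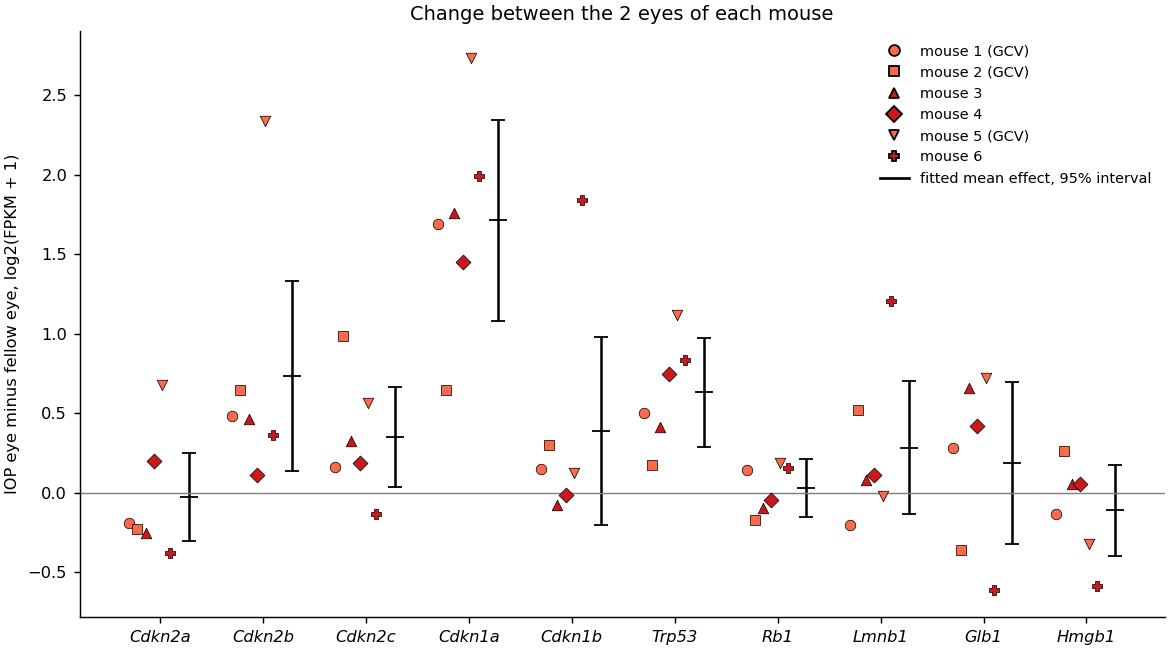
Difference between the IOP-treated and the fellow eye of each mouse on the log2(FPKM + 1) scale (vertical axis) for each gene; symbols are mice, paler ones with GCV, and the bar is the fitted mean effect with its 95% interval. Cdkn1a, Trp53 and Cdkn2b were above 0 in 6 of 6 mice, and mouse 6 stood apart for Cdkn1b (1.84) and mouse 5 for Cdkn2b (2.34).

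No fall of Lmnb1, the gene of lamin B1, was called. It was at 16.7, 15.5 and 16.2 FPKM in control and at 17.7, 16.8 and 38.7 FPKM in IOP retinas. With GCV it was at 18.2, 13.3 and 18.7 FPKM in control-GCV and at 15.7, 19.5 and 18.5 FPKM in IOP-GCV retinas. All 3 IOP retinas lay above the control retinas without GCV, by 0.47 (SE 0.27, adjusted p = 0.355 in limma) on the log2(FPKM + 1) scale, and the groups overlapped with GCV. The difference without GCV was 0.094 when the IOP retina of mouse 6 was left out. The interval of the mean effect, -0.13 to 0.70, leaves room for a small fall.

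Glb1 was at 3.01, 4.33 and 4.73 FPKM in control and at 5.32, 6.15 and 2.75 FPKM in IOP retinas. With GCV it was at 5.52, 5.24 and 6.01 FPKM in control-GCV and at 6.93, 3.87 and 10.6 FPKM in IOP-GCV retinas. The groups overlapped in both arms, the IOP-treated eye was higher in 4 of 6 mice, and the mean effect was 0.19 (SE 0.23, adjusted p = 0.622 in limma) on the log2(FPKM + 1) scale. Without the IOP retina of mouse 6, the lowest of the 12, it was 0.33 (adjusted p = 0.320, limma), and without the IOP-GCV retina of mouse 5, the highest, it was 0.036 (adjusted p = 0.936, limma). This is the RNA of the enzyme and not its activity.

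Hmgb1 was at 12.2, 11.7 and 11.5 FPKM in control and at 12.7, 12.2 and 7.32 FPKM in IOP retinas. With GCV it was at 12.1, 10.7 and 13.2 FPKM in control-GCV and at 11.0, 13.1 and 10.4 FPKM in IOP-GCV retinas. The groups overlapped, the low value belonged to the IOP retina of mouse 6, and the mean effect was -0.11 (SE 0.13, adjusted p = 0.600 in limma) on the log2(FPKM + 1) scale. Without that retina it was 0.0048. Hmgb1 has many processed copies in the genome, so its value is uncertain to the extent that reads are shared with them.

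Counted together, 2 of the 10 genes, Cdkn1a and Trp53, were called higher in the averaged comparison, in which 6.76% of all genes tested were called higher, 5.44% lower and 12.2% in either direction. With the mouse as a block the count was 1, Cdkn1a. No gene of the 10 was called without GCV, where 1.65% of all genes were (1.42% higher), or with GCV, where 1.8% were. Non-overlapping higher IOP groups were found for 3 of 10 genes without GCV (Cdkn1a, Trp53 and Lmnb1) against 11.7% of all genes, and for 4 of 10 with GCV (Cdkn1a, Cdkn1b, Cdkn2b and Cdkn2c) against 14.5%. Non-overlapping lower IOP groups were found for 0 of 10 genes, against 8.81% of all genes without and 15.3% with GCV. The IOP-treated eye was the higher one in all 6 mice for 3 of 10 genes and for 10.7% of all genes, and the lower one in all 6 for 0 of 10 genes and for 10.1% of all genes. With 10 genes these shares rest on at most 4 genes each.

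The effect of GCV was the question the arms were set up to answer, and no gene of the 10 was called for it. In limma, 0 genes of all 18509 (0.0%) were called for the difference of the IOP effect, with 358 at an unadjusted p under 0.05, 0 (0.0%) for GCV in IOP retinas, with 774, and 0 (0.0%) for GCV in control retinas, with 295. GCV against none in IOP retinas came to 0.17 (SE 0.18) for Cdkn2a, 0.79 (SE 0.38) for Cdkn2b and 0.11 (SE 0.40) for Cdkn1a on the log2(FPKM + 1) scale. The 95% interval for Cdkn2b was -0.06 to 1.64 (adjusted p = 0.819, limma), and without the IOP-GCV retina of mouse 5 its difference was 0.33. Over the alternatives other than leaving out 1 library, the difference reached 0.73 for Cdkn2a and 1.35 for Cdkn2b, with neither called. The mice with and without GCV were different animals, so that mouse and treatment are compared over 3 against 3 mice only.

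The genes that act around these 10 were followed in lists of the same pathways. In the averaged comparison, genes driven by E2F in proliferating cells had 6 of 10 members called higher, against 6.76% of all genes, and none lower, with a median of 0.51 against 0.0089 over all genes tested. The count was also 6 with the mouse as a block. Top2a, a topoisomerase of dividing cells, was at 0.124 ± 0.116 FPKM in control, 1.48 ± 0.404 in IOP, 0.0820 ± 0.0490 in control-GCV and 0.888 ± 0.194 FPKM in IOP-GCV retinas (SD, n = 3; log2 effect 0.97, adjusted p = 0.000422, limma). Rrm2, a subunit of ribonucleotide reductase, rose by 0.64 (adjusted p = 0.00106, limma), Mki67, the marker of cycling cells, by 0.90 (adjusted p = 0.00127, limma) and Cdk1, the mitotic kinase, by 0.68 (adjusted p = 0.00337, limma). All 4 had means under 2 FPKM in every group, and their source among retinal and immune cells was not tested.

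Of 8 G1 cyclins and kinases only Cdk2 was called, a share near the 12.2% of all genes called in either direction. It went from 0.738 ± 0.0784 to 2.25 ± 1.01 FPKM without GCV and from 0.671 ± 0.149 to 1.73 ± 0.385 FPKM with GCV (SD, n = 3; adjusted p = 0.0156, limma). Ccnd1, the cyclin D partner of Cdk4, was at 8.35 ± 1.87 and 12.3 ± 0.972 FPKM without GCV. With GCV it was at 10.3 ± 3.29 and 15.0 ± 4.98 FPKM (SD, n = 3). It did not pass in the averaged comparison (adjusted p = 0.0851, limma). Of 12 Rb relatives and E2F factors, E2f6, a repressor E2F, was the 1 called, again a share near the 12.2% of all genes. It was at 8.71 ± 1.87 FPKM in control, 22.1 ± 2.65 in IOP, 9.09 ± 1.11 in control-GCV and 17.6 ± 3.31 FPKM in IOP-GCV retinas (SD, n = 3; log2 effect 1.07, adjusted p = 0.000964, limma). The other CDK inhibitors Cdkn1c (log2 effect 0.31, adjusted p = 0.121) and Cdkn2d (0.07, adjusted p = 0.755) did not pass in limma.

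None of 9 p53 regulators was called in the averaged comparison, against 12.2% of all genes. Without the IOP-GCV retina of mouse 5 there was 1, the checkpoint kinase gene Chek2 (log2 effect 0.52, adjusted p = 0.0353, limma), which is named here after its values were seen. Mdm2, the ubiquitin ligase that is both a regulator and a target of p53, was at 20.1 ± 1.27 FPKM in control and 26.2 ± 13.0 in IOP retinas (SD, n = 3; log2 effect over both arms 0.23, adjusted p = 0.477, limma). Without the IOP retina of mouse 6 this effect was 0.048. Of 13 regulators of the Ink4/Arf locus, the Polycomb genes Rnf2 (log2 effect 0.32, adjusted p = 0.0303) and Eed (0.55, adjusted p = 0.0498) and the helix-loop-helix inhibitor Id1 (0.61, adjusted p = 0.0122) were called higher in limma, against 6.76% of all genes. With the mouse as a block, and also without the IOP-GCV retina of mouse 5, 1 call was left in this list. Bmi1, the Polycomb repressor of the locus, was at 41.1 ± 2.92 and 42.5 ± 3.64 FPKM in control and IOP retinas (SD, n = 3). With GCV it was at 37.9 ± 2.26 and 38.4 ± 2.43 FPKM, and the averaged comparison gave adjusted p = 0.771 in limma. Tbk1, a kinase gene linked to glaucoma, had a log2 effect of 0.23 (adjusted p = 0.146), and Six6, a transcription factor of the developing eye also linked to glaucoma, one of -0.41 (adjusted p = 0.0791, both limma).

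Lysosomal genes other than Glb1 had 7 of 12 members called higher, against 6.76% of all genes, with a median of 0.59. The count was also 7 with the mouse as a block. Gusb, the β-glucuronidase gene, was at 2.70 ± 0.609 FPKM in control, 10.9 ± 3.98 in IOP, 2.81 ± 0.580 in control-GCV and 9.98 ± 7.43 FPKM in IOP-GCV retinas (SD, n = 3), with a log2 effect of 1.48 (adjusted p = 0.0146, limma). Man2b1, a lysosomal mannosidase, had a log2 effect of 0.50 (adjusted p = 0.0118, limma) and Ctsa, the protective protein of lysosomal β-galactosidase, one of 0.75 (adjusted p = 0.0159, limma). The count was 5 of 12 without the IOP-GCV retina of mouse 5. The microglia and macrophage sums given above were higher in the same 6 IOP-treated retinas, and the part of these cells in the lysosomal rise was not tested.

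The other lamina genes had 0 of 8 members called, against 12.2% of all genes, with Lmna at a log2 effect of 0.29 (adjusted p = 0.322) and Lmnb2 at 0.17 (adjusted p = 0.245, both limma). Of 7 other high mobility group genes (Hmgb2, Hmgb3, Hmga1 and Hmga2) and Hmgb1 receptors (Ager, Tlr2 and Tlr4), only the receptor gene Tlr2 was called, a share near the 12.2% of all genes. It was at 0.306 ± 0.0255 and 2.53 ± 1.29 FPKM without GCV and 0.348 ± 0.256 and 6.09 ± 7.72 FPKM with GCV (SD, n = 3; log2 effect 1.59, adjusted p = 0.0436, limma). This call was lost with the mouse as a block and without the IOP retina of mouse 6, where the effect was 1.69 (adjusted p = 0.0552, limma). Hmgb2, the nearest relative of Hmgb1, had a log2 effect of 0.48 (adjusted p = 0.289, limma), which was 0.21 without the IOP retina of mouse 6.

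**Figure D5:**
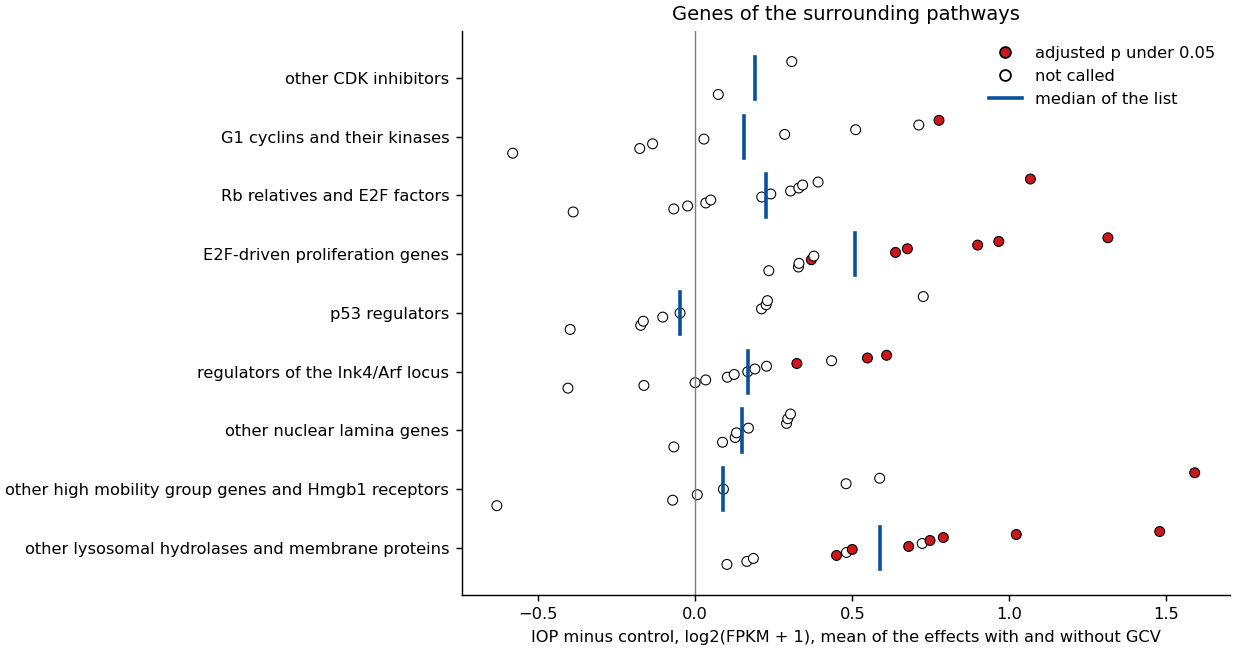
Effect of IOP averaged over mice with and without GCV (horizontal axis, log2(FPKM + 1) scale) for each gene of 9 pathway lists; red points passed an adjusted p of 0.05 in limma, open points did not, and the blue line is the median of the list. The called genes are mostly among the proliferation genes (6 of 10) and the lysosomal genes (7 of 12).

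The genes whose pattern was most like that of a member were sought among 12910 genes by Pearson's r of log2(FPKM + 1) over the 12 libraries, which is a description of points that share 2 eyes per mouse. Cdkn1a was nearest to Msn, the gene of moesin (r = 0.99), and to the leukocyte surface genes Ly9 (0.99) and Il2rg (0.99). Trp53 was nearest to Atf7 (0.95), Ascc3 (0.94) and Pprc1 (0.94), Cdkn2c to Nrm (0.94), Dynlrb2 (0.93) and Trnau1ap (0.92), and Rb1 to Cpeb4 (0.89), Cep295 (0.88) and Aebp2 (0.88). Cdkn1b was nearest to Paf1, Asun and Usp1 (0.99 each) and Lmnb1 to Htatsf1 (0.99), Atg4c (0.98) and Zfp146 (0.98). Cdkn1b and Lmnb1 had their highest value in the same library, the IOP retina of mouse 6 (189 and 38.7 FPKM). Elsewhere they lay between 52.1 and 67.0 FPKM and between 13.3 and 19.5 FPKM. Their r values therefore depend strongly on that library, and r without it was not computed. Glb1 was nearest to Capn2 (0.96), Fbxw17 (0.92) and 2610507B11Rik (0.92), and Hmgb1 to Haus5 (0.95), Ccdc163 (0.94) and Pwwp2b (0.93).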

How the data were processed

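Total RNA of 12 retinas was made into stranded mRNA libraries and sequenced as paired reads of 50 bases. The table deposited by the authors holds FPKM values. The unit is not stated with it and was inferred from the values. The submitters' processing notes name TopHat2, Bowtie2, Cufflinks, Cuffdiff and mm10 without roles, and the study's methods state exon counting with HOMER. Versions are not given in the sources used here. Columns were matched to samples by mouse and eye, and none was left unused.

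Depth was estimated from 8530 genes with a transcript length of 1500 bases or more, less 170 bases for the fragment. Of the low values, 83.1% to 85.8% lay within 0.15 of whole fragments. Fragments of a gene with several transcripts used their mean length. Counting intervals are exact binomial at 95%, and 3 fragments are the limit at 0.

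The test was limma (version 3.58.1, under R 4.3.3) of log2(FPKM + 1), fitting a mean for each of the 4 groups and a variance trend. Adjustment was by Benjamini-Hochberg over 18509 genes, and genes were called at 0.05. The script was tested on simulated data. Effects are differences on this scale, which understates changes of low genes. The averaged comparison is the mean of the effects with and without GCV. Same-numbered eyes came from 1 mouse, so the numbers pair them. The correlation of their deviations from the group means was -0.12 to 0.39 over the 6 mice. The alternatives were a pseudocount of 0.1, at least 1 FPKM in 3 libraries, the mouse as a block, median-ratio scaling, no trend, only the groups compared, and each library left out. Genes named are the 10 members, at most 4 called genes of each pathway list by adjusted p, 12 genes set by name, and the 3 most similar genes of each member with a mean of at least 1 FPKM. The result of 1 gene named by this rule is not reported here. The members and lists were chosen with earlier results of these data known. Tables and plots used Python 3.11.15, pandas 2.3.3, numpy 2.4.6, scipy 1.17.1 and matplotlib 3.10.9.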

Additional observations from a re-analysis of the deposited data

Results flagged for a closer look

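Over the 6 eye pairs, 2 values lay farther from the others than Dixon's 95% limit allows, a limit that chance passes in about 1 of 20 groups. The difference between the eyes of mouse 5 for Cdkn2b was 2.34 on the log2(FPKM + 1) scale, against 0.11 to 0.65 in the other 5 mice. The difference for Cdkn1b in mouse 6 was 1.84, against -0.08 to 0.30 in the other 5.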

How the results depend on the processing

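Of the 10 genes, 0 were called without GCV, and 1, Cdkn1a, was called with a pseudocount of 0.1, with the filter of 1 FPKM in 3 libraries, which drops Cdkn2a, and with only the groups compared (0 to 1 with 1 library left out, where 1 came without the IOP retina of mouse 4 or the IOP-GCV retina of mouse 2 or 5). With GCV 0 were called, and 1 with that pseudocount or filter (0 to 1 with 1 library left out). In the averaged comparison 2 were called, and 1 with the mouse as a block (1 to 2 with 1 library left out). The block, which cannot be fitted for GCV against none, changed no other call of the 10 genes. It cut the genes called over all genes from 306 to 75 without GCV, from 334 to 144 with GCV and from 2258 to 1351 in the average. A pseudocount of 0.1 gave 464 and 535 genes without and with GCV, and only the groups compared gave 92 with GCV. With 1 library left out the counts were 23 to 2490 without GCV, 77 to 1046 with GCV and 830 to 4515 in the average, each highest without the IOP retina of mouse 4.

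No alternative other than leaving out 1 library turned a direction. With 1 library left out, the log2 effect without GCV ranged from -0.060 to 0.33 for Cdkn2c, -0.0087 to 0.89 for Cdkn1b, -0.051 to 0.098 for Rb1, -0.029 to 0.44 for Glb1 and -0.29 to 0.071 for Hmgb1. With GCV it ranged from -0.099 to 0.24 for Cdkn2a, -0.011 to 0.11 for Rb1, -0.047 to 0.19 for Lmnb1, -0.083 to 0.54 for Glb1 and -0.15 to 0.0028 for Hmgb1. The average ranged from -0.12 to 0.049 for Cdkn2a, -0.0036 to 0.075 for Rb1 and -0.17 to 0.0048 for Hmgb1. The difference of the IOP effects ranged from -0.55 to 0.41 for Cdkn1a, -0.69 to 0.20 for Cdkn1b, -0.29 to 0.10 for Trp53, -0.044 to 0.11 for Rb1, -0.57 to 0.0084 for Lmnb1, -0.24 to 0.39 for Glb1 and -0.13 to 0.23 for Hmgb1. GCV against none in IOP retinas ranged from -0.019 to 0.32 for Cdkn2a, -0.40 to 0.56 for Cdkn1a, -0.73 to 0.17 for Cdkn1b, -0.53 to 0.045 for Lmnb1 and -0.11 to 0.25 for Hmgb1. In control retinas it ranged from -0.17 to 0.046 for Cdkn2a, -0.23 to 0.14 for Cdkn2b, -0.047 to 0.18 for Lmnb1 and -0.046 to 0.091 for Hmgb1. None of these results was called, and the cause of the turns was not tested. For Cdkn2b, GCV against none in IOP retinas ranged from 0.33, without the IOP-GCV retina of mouse 5, to 1.06. Depth limits Cdkn2a and Cdkn2b, where 1 fragment moves a value.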
